A study of Mus musculus with 4 samples.

Results

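The 4 mouse Hox clusters were examined in ChIP-seq peak lists for the transcription factor RUNX1 and for H3K27me3, the trimethyl mark that Polycomb repressive complex 2 places on histone H3. The members are the Hox genes of clusters a (chromosome 6), b (chromosome 11), c (chromosome 15) and d (chromosome 2) in the mm10 build, taken by gene name, and 38 of 21911 protein-coding genes were analysed: 10 in each of clusters a and b and 9 in each of clusters c and d. A peak was given to a Hox gene if its summit, the position of highest signal, lay in the gene body or within 5 kb of it, and it was then assigned to the nearest Hox transcription start. All cells were floating hematopoietic progenitors differentiated in culture from mouse ESCs for 2 days by the labels, where a figure legend of the study names a later day, and all carried the genotype Tet-on dominant-negative FOS (dnFOS), a peptide made once doxycycline (DOX) is added that keeps AP-1 off its sites. There was 1 library for each of the 4 groups, so no difference between libraries could be set against replicate error and no test was made. The RUNX1 libraries are called here by their labels, +DOX and -DOX, although the run names inside the lists give the opposite treatment. The H3K27me3 libraries have titles that disagree with their stated treatments, so they are told apart only by title (titled untreated, titled DOX) and nothing is said of DOX for them. The protocol attached to them also names an antibody against RUNX1.

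Hox genes encode homeodomain transcription factors that give cells their position along the body axis, and within a cluster they lie in the order in which they are used, from the anterior genes of low number to the posterior genes of high number. Polycomb complexes keep the clusters silent where they are not in use, and H3K27me3 over a Hox start is the usual sign of that state. In blood, several members, Hoxa9, Hoxa10 and Hoxb4 among them, are known from stem and progenitor cells and from leukaemia, while RUNX1 is the factor required for blood cells to emerge from endothelium.

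The sequence at the strongest H3K27me3 peak assigned to a Hox gene is shown first for clusters a, b and d, because all 3 of these windows lay wholly outside untranslated exons, in protein-coding exon sequence of a Hox gene rather than upstream of its start. Each line gives 200 bp around the summit in mm10, on the plus strand, with every CpG in capitals. The windows are chr6:52191384-52191583 in Hoxa4 (titled untreated), chr11:96271601-96271800 in Hoxb9 (titled DOX) and chr2:74763278-74763477 in Hoxd1 (titled untreated).
Hoxa4: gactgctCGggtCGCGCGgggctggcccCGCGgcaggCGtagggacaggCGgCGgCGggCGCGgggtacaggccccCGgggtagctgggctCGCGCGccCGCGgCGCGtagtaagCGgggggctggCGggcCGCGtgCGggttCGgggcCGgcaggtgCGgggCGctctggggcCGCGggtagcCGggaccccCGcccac
Hoxb9: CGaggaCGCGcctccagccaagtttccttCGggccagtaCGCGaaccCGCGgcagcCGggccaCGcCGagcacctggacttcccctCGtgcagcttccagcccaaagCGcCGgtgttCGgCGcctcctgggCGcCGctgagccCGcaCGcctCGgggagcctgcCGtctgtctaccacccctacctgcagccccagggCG
Hoxd1: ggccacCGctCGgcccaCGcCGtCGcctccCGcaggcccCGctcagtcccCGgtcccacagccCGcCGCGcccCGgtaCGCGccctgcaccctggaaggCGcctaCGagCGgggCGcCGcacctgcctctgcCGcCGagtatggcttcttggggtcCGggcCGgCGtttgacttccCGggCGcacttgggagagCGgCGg
The window in Hoxa4 held 33 CpGs, that in Hoxd1 28 and that in Hoxb9 23.

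Peaks of H3K27me3 lay at most Hox genes. In the list titled untreated, 26 of 38 Hox genes had a peak, or 68.4% (95% Wilson interval 52.5 to 80.9), where 14.0% of all protein-coding genes had one by the same window. In the list titled DOX, 28 of 38 had a peak, or 73.7% (58.0 to 85.0), against 14.5% of protein-coding genes. A peak in both lists was found at 20 Hox genes, or 52.6% (37.3 to 67.5), against 11.3%. A peak in at least 1 list was found at 34, or 89.5%, against 3758 of 21911 protein-coding genes. The intervals cover counting error only, and neighbouring Hox genes may share a chromatin domain, so they cannot be taken as independent of each other.

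**Figure D1:**
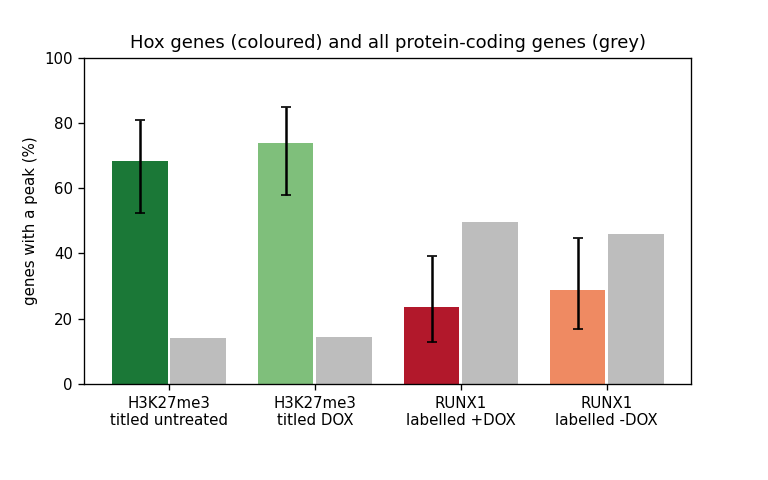
Percentage of genes with at least 1 peak in each of the 4 lists, for the 38 Hox genes (coloured bars, with the 95% Wilson interval) and for all 21911 protein-coding genes (grey bars). The Hox bars stand at 68.4% and 73.7% for H3K27me3, above the grey bars of 14.0% and 14.5%, and at 23.7% and 28.9% for RUNX1, below the grey bars of 49.6% and 45.9%.

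The peaks were many rather than strong. There were 45 of them in the list titled untreated and 46 in the list titled DOX, and 14 and 13 genes respectively had more than 1. Strength was read as a rank within the own list, since the depth of the libraries is unknown: the percentile of a peak's -log10 q-value among all peaks of its list. The median Hox peak stood at the 47.7th percentile in the list titled untreated and at the 39.4th in the list titled DOX, with ranges of 1.02 to 94.95 and 8.14 to 91.2. Above the 90th percentile there were 2 peaks in the list titled untreated, at Hoxa4 and Hoxc13, and 1 in the list titled DOX, at Hoxa4. With each list cut to its 5000 strongest peaks, 21 Hox genes kept a peak in the list titled untreated, against 12.1% of protein-coding genes, and 22 in the list titled DOX, against 11.3%.

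**Figure D2:**
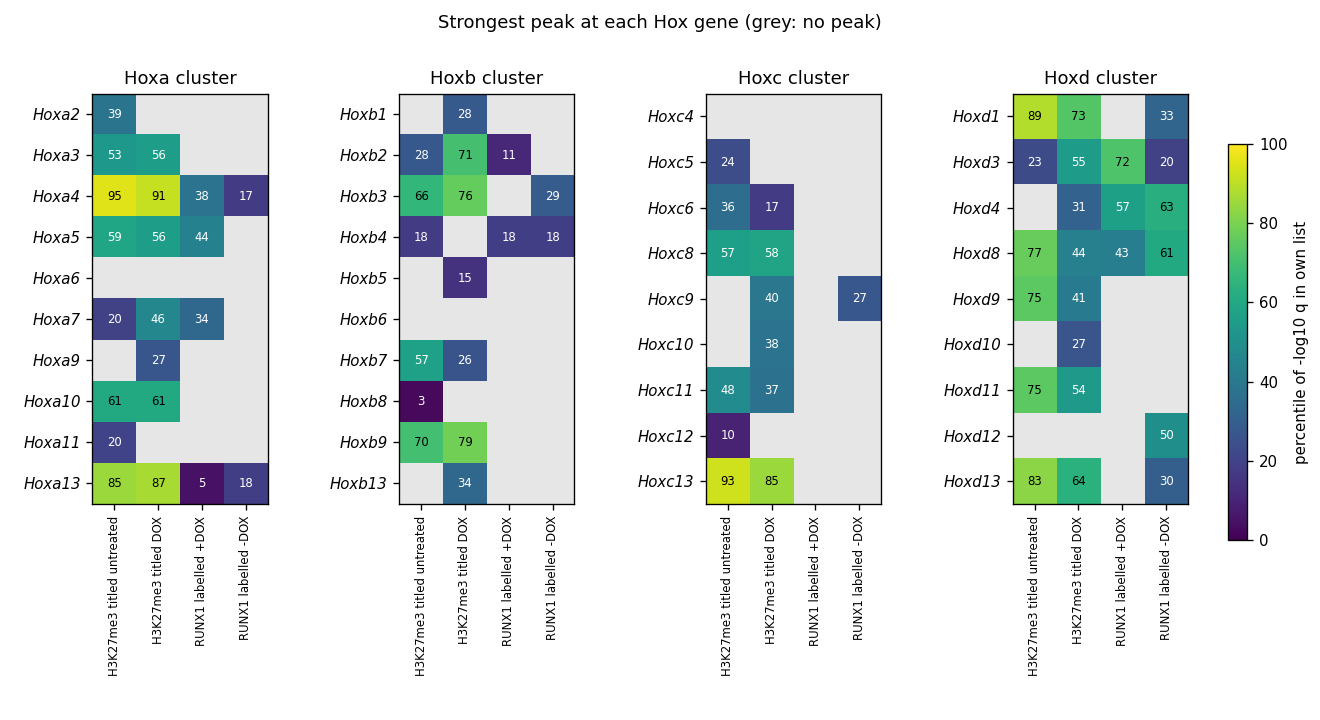
Each row is a Hox gene, ordered from anterior to posterior within its cluster, and each column a list. Colour and number give the percentile of -log10 q of the gene's strongest peak in its own list, and grey marks a gene with no peak. In the list titled untreated, Hoxa4, Hoxa13, Hoxc13 and Hoxd1 are the brightest genes, and most RUNX1 cells are grey.

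In cluster a, the peak with the highest -log10 q in both lists lay in Hoxa4, an anterior gene that patterns the neck vertebrae. It had a -log10 q of 30.8 and a fold enrichment of 7.89 over local background in the list titled untreated (chr6:52191046-52191634), and 16.6 and 6.51 in the list titled DOX (chr6:52191136-52191648). These were the widest Hox peaks of their lists, 589 and 513 bp, with summits 269 and 163 bp downstream of the start. At the other end of the cluster, Hoxa13, needed for the digits and the urogenital tract, had peaks at the 85.1st and 86.7th percentile. Hoxa10, which acts in the uterus and in myeloid progenitors, stood at the 60.9th and 60.8th percentile, with 2 and 3 peaks. Its neighbour Hoxa9, the member most often tied to leukaemia, had no peak in the list titled untreated and 2 weak ones in the list titled DOX, the stronger at a -log10 q of 3.59 and the 26.8th percentile. In the list titled DOX, weak and stronger peaks were thus neighbours at Hoxa9 and Hoxa10.

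In cluster b, Hoxb9, a posterior gene that takes part in patterning of the thorax, held the strongest peak at a gene of the cluster in both lists, although the list titled untreated had a higher one between genes, in Gm53, at a -log10 q of 10.7. The values were a -log10 q of 9.20 and a fold of 4.27 in the list titled untreated (chr11:96272575-96272731, in the intron), and 9.42 and 4.70 in the list titled DOX (chr11:96271631-96271871, in coding sequence). Their summits lay 1133 and 178 bp downstream of the start. Both lists had overlapping peaks at both places, and which was stronger differed. The coding peak titled untreated had a -log10 q of 5.24 and the intron peak titled DOX 5.33. Hoxb3, which acts in the hindbrain and pharyngeal region, followed with 8.63 and 8.79, both within its intron and 4983 and 4884 bp from the nearest start. Hoxb4, known for expanding blood stem cells when overexpressed, had 1 peak in the list titled untreated, at a -log10 q of 3.87 and the 17.6th percentile, and none in the list titled DOX. In the list titled untreated the maximum over peaks assigned to Hoxb genes, at the 70.1st percentile, was the lowest among the clusters, and in the list titled DOX, at the 78.9th, it was above that of the Hoxd genes.

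In cluster c, Hoxc13, a posterior gene needed for hair and nails, was first in both lists. Its highest peak had a -log10 q of 23.2 and a fold of 7.20 in the list titled untreated, and 11.4 and 5.45 in the list titled DOX. The list titled DOX had 4 separate peaks over this gene, the most at any Hox gene, between 198 and 1154 bp downstream of the start, and the list titled untreated had 2. Hoxc8, which patterns the lower thorax, came second in the list titled untreated together with a close value in the list titled DOX, at the 56.6th and 58.5th percentile. The rest of cluster c stood lower, from the 9.87th percentile at Hoxc12 to the 48.1st at Hoxc11 in the list titled untreated.

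In cluster d, Hoxd1, the most anterior gene of the cluster, had the strongest peak in both lists, with a -log10 q of 16.3 and a fold of 8.47 in the list titled untreated (chr2:74763040-74763445) and 8.16 and 6.23 in the list titled DOX (chr2:74763225-74763362). The fold of 8.47 was the highest of any Hox peak. Hoxd13, the posterior gene that shapes the digits, followed with 13.0 and 6.82. Hoxd8, Hoxd9 and Hoxd11, of the trunk and forelimb, stood between the 74.8th and 76.9th percentile in the list titled untreated and between the 41.5th and 53.7th in the list titled DOX. The strongest peaks of cluster d thus lay at both ends of the cluster, at Hoxd1 and Hoxd13, with middle genes between.

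**Figure D3:**
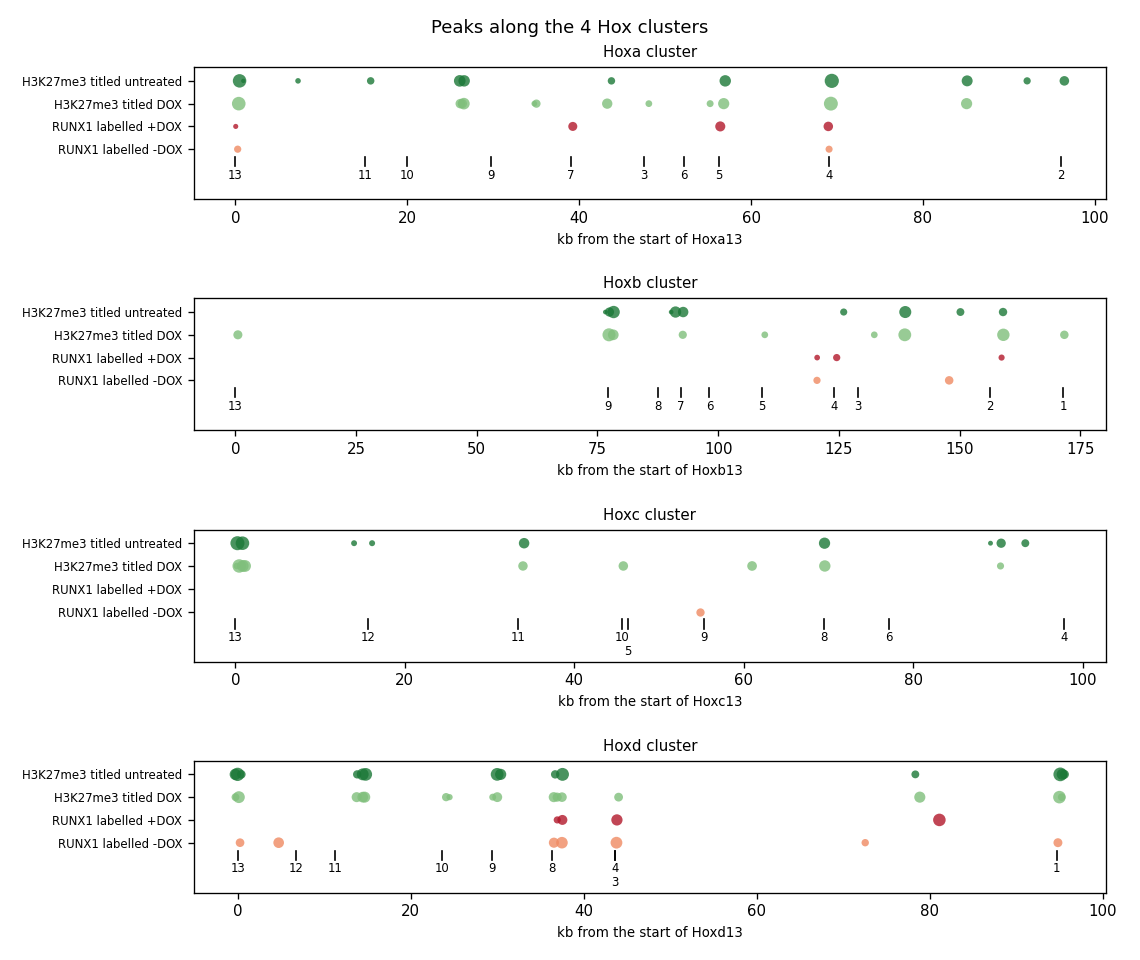
Position of the summit of each peak assigned to a Hox gene along the 4 clusters, in kb from the start of the gene of group 13. Ticks with numbers mark the 5' end of each Hox gene record by its paralogue group, rows are the 4 lists, and a larger point has a higher percentile of -log10 q in its own list. H3K27me3 points lie along all 4 clusters, and the row of the RUNX1 library labelled +DOX is empty in cluster c.

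By paralogue group, an H3K27me3 peak in at least 1 list was found at 10 of 11 genes of groups 1 to 4, at 9 of 11 of groups 5 to 8 and at 15 of 16 of groups 9 to 13. Among all protein-coding genes, 3758 of 21911 had one. Of the Hox genes, the 2 lists together left out 4. These were Hoxa6, Hoxb6 and Hoxc4, which had no peak of any kind, and Hoxd12, which had a RUNX1 peak. A gene with none is not shown to be free of the mark, since the nearest summit lay 3085 bp from the start of Hoxa6, 4784 bp from that of Hoxb6 and 4605 bp from that of Hoxc4, and each was assigned to a closer Hox start or lay outside the window.

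Genes with a peak in a single H3K27me3 list stood low in it. Hoxa2, Hoxa11, Hoxb4, Hoxb8, Hoxc5 and Hoxc12 had a peak only in the list titled untreated, and Hoxa9, Hoxb1, Hoxb5, Hoxb13, Hoxc9, Hoxc10, Hoxd4 and Hoxd10 only in the list titled DOX. Their strongest peaks had a median at the 18.8th percentile for the first 6 genes (2.60 to 38.7) and at the 29.9th for the other 8 (14.7 to 39.8). The 20 genes in both lists were Hoxa3, Hoxa4, Hoxa5, Hoxa7, Hoxa10 and Hoxa13, Hoxb2, Hoxb3, Hoxb7 and Hoxb9, Hoxc6, Hoxc8, Hoxc11 and Hoxc13, and Hoxd1, Hoxd3, Hoxd8, Hoxd9, Hoxd11 and Hoxd13. For them the medians were the 63.5th and 57.2nd percentile. Across those 20 genes the percentile in one list followed that in the other with Pearson's r = 0.527 and Spearman's rho = 0.571, a description across genes of the same cells that are not independent replicates. Of the 45 peaks titled untreated, 26 overlapped a peak titled DOX by at least 1 bp, or 57.8% (43.3 to 71.0), where 59.9% of all peaks of that list did. In the other direction it was 27 of 46, or 58.7% (44.3 to 71.7), against 57.1%.

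The Hox peaks lay downstream of starts and in coding exons. Of the peaks within 1500 bp of a Hox start, 31 of 36 titled untreated lay downstream of it, or 86.1% (71.3 to 93.9), and 35 of 41 titled DOX, or 85.4% (71.6 to 93.1). Among all H3K27me3 peaks within 1500 bp of a start these shares were 70.3% and 69.6%. The median summit near a Hox start lay 463 and 349 bp downstream, against 164 and 163 bp for all near peaks. In the same near peaks, 25 of 36 summits titled untreated, or 69.4%, and 25 of 41 titled DOX, or 61.0%, lay in coding exons, against 26.2% and 26.0% of all near peaks. Among RUNX1 peaks near Hox starts, 7 of 9 labelled +DOX lay downstream, or 77.8% (45.3 to 93.7), against 55.3% of all near peaks. For -DOX it was 7 of 10, or 70.0% (39.7 to 89.2), against 57.2%. In coding exons there were 3 of 9 (33.3%) and 4 of 10 (40.0%), against 12.8% and 13.6%. Hox genes have compact first exons that begin to code close to the start, and what that adds to these shares was not tested. The dense clusters and the 5 kb window also favour near positions, so the share of near peaks itself is not set against the whole list.

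**Figure D4:**
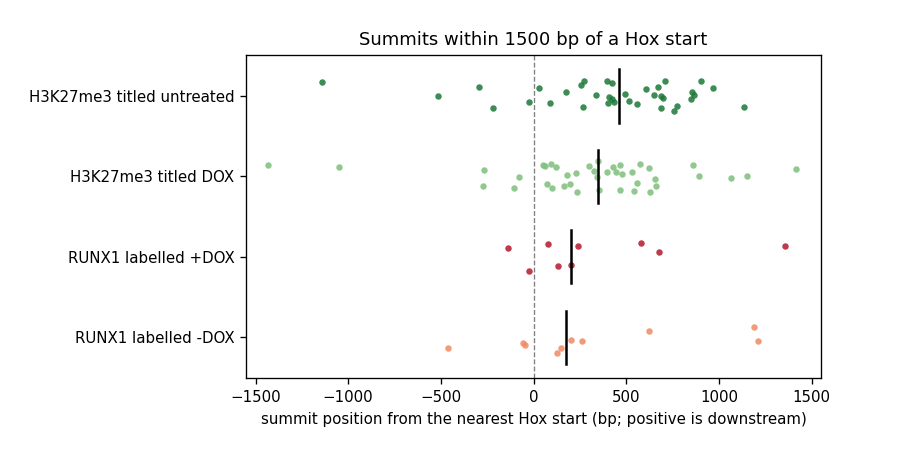
Position of each summit within 1500 bp of a Hox start, in bp, with positive values downstream. Points are peaks, spread vertically for legibility, and black bars are medians, which lie at 463 and 349 bp for H3K27me3 and at 202 and 176 bp for RUNX1.

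For the mark, Hox peaks ranked lower by fold than by q-value, although peaks high in one rank were also high in the other at Hoxa4, Hoxc13 and Hoxd1. The median Hox peak stood at the 15.5th percentile by fold in the list titled untreated and at the 13.7th in the list titled DOX, below its percentiles by -log10 q of 47.7 and 39.4. In each list, 8 peaks were above the median fold, and the median fold was 3.95 at Hox genes against 5.19 for all peaks in the list titled untreated, and 3.84 against 4.88 in the list titled DOX. The lists used here hold no tag counts, so the number of tags behind each peak is unknown. Hox peaks were as wide as others, with medians of 184 against 180 bp and 143 against 122 bp. In the list titled untreated, the peaks assigned to Hox genes covered 3212 bp in cluster a, which spans 105 kb, and 2132 bp in cluster b, which spans 174 kb, with peaks outside the gene windows left out of both sums. The lists were called as narrow peaks and are short throughout, so whether the mark forms a continuous domain cannot be read from them.

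**Figure D5:**
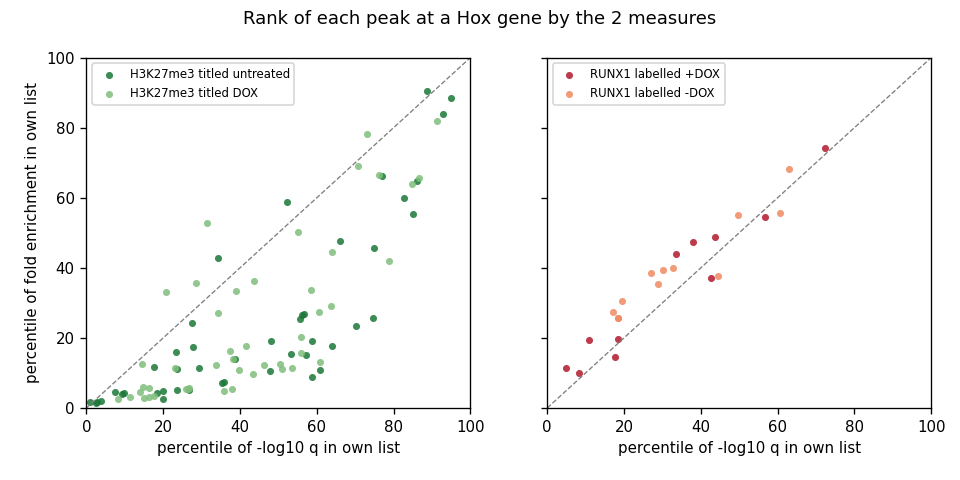
Each point is a peak at a Hox gene, with the percentile of its -log10 q in its own list on the x axis and the percentile of its fold enrichment on the y axis, for H3K27me3 (left) and RUNX1 (right). The dashed line marks equal percentiles. Most H3K27me3 points lie below the line, where the medians were 47.7 and 15.5 in the list titled untreated, and the RUNX1 points lie near it.

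The base composition followed the windows printed above. Near Hox starts, the 200 bp at an H3K27me3 summit had a median GC content of 72.8% in the list titled untreated and 70.5% in the list titled DOX, against 67.5% and 65.0% for all near peaks. The ratio of observed to expected CpGs was 0.865 and 0.820, against 0.726 and 0.664. None of the Hox windows was made up mostly of soft-masked repeat sequence, where 12.8% and 16.5% of all windows were. High GC content was not particular to the mark. RUNX1 peaks near Hox starts had medians of 72.0% (+DOX) and 74.8% (-DOX), against 59.0% and 61.0% for all near RUNX1 peaks. Their CpG ratio was 0.949 and 0.972, against 0.578 and 0.662.

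By nearest start, RUNX1 peaks were found at a smaller share of Hox genes than of protein-coding genes. In the library labelled +DOX, 9 of 38 genes had a peak, or 23.7% (13.0 to 39.2), against 49.6% of protein-coding genes. In the library labelled -DOX, 11 had a peak, or 28.9% (17.0 to 44.8), against 45.9%. The genes were Hoxa4, Hoxa13, Hoxb4, Hoxd3, Hoxd4 and Hoxd8 in both lists, Hoxa5, Hoxa7 and Hoxb2 only in the library labelled +DOX, and Hoxb3, Hoxc9, Hoxd1, Hoxd12 and Hoxd13 only in the library labelled -DOX. A peak only in the library labelled +DOX was found at 7.99% of protein-coding genes and at 7.89% of Hox genes (2.72 to 20.8), and a peak only in the library labelled -DOX at 4.22% and 13.2% (5.75 to 27.3). If the run names hold and the libraries are exchanged, the 3 genes become the ones without DOX and the 5 genes the ones with it. A peak in both lists was found at 6 of 38 Hox genes, or 15.8%, and at Hoxa13 and Hoxd3 those peaks did not overlap. Of 21911 protein-coding genes, 10876 had a peak labelled +DOX, and 1750 of them had none labelled -DOX. The share in both lists was thus smaller for Hox genes. A peak in at least 1 list was found at 36.8% of Hox genes, where +DOX by itself reached 49.6% of protein-coding genes. Of the 14 Hox genes with a RUNX1 peak, 6 belonged to cluster d and 1 to cluster c. By nearest start each peak counts for 1 gene, and Hox genes lie close together. With every Hox gene counted whose window held the summit, the numbers were 13 (+DOX) and 15 (-DOX). The share of protein-coding genes by that rule was not computed, so what the assignment takes from the Hox shares was not tested.

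The RUNX1 peaks were also weak. Their median stood at the 33.5th percentile of -log10 q in the library labelled +DOX and at the 29.5th in the library labelled -DOX, and 2 peaks in each list were above the median. With the lists cut to their 5000 strongest peaks no Hox gene kept a RUNX1 peak in either list, which allows a share of up to 9.18% by the same interval, whereas 16.0% of protein-coding genes kept one in each list. For comparison within the same lists, the strongest peak at the blood gene Spi1, which encodes PU.1, stood at the 99.3rd percentile (+DOX) and the 97.5th (-DOX), and at Runx1 itself at the 98.2nd and 99.0th. Among the other blood genes fixed as markers, Itga2b stood at 98.73 and 97.85, Tal1 at 92.5 and 88.7 and Gata2 at 72.4 and 83.9. Ptprc had a peak only in the library labelled +DOX, at the 72.0th percentile, and Kit, Csf1r, Itgam and Cd34 had none in either list. Of the 10 blood markers, 6 had a RUNX1 peak labelled +DOX and 5 one labelled -DOX. Only Gata2 had an H3K27me3 peak, titled DOX. Of 8 marker genes of other lineages, 3 (+DOX) and 4 (-DOX) had a RUNX1 peak. An H3K27me3 peak lay at 4 (titled untreated) and 5 (titled DOX) of them. Of all protein-coding genes, 49.6% and 45.9% had a RUNX1 peak and 14.0% and 14.5% an H3K27me3 peak, in the same order.

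Among RUNX1 peaks assigned to Hox genes, the highest of each list lay in cluster d. Hoxd3, an anterior gene of the neck region, had the highest one in the library labelled +DOX, with a -log10 q of 14.7, a fold of 6.71 and the 72.4th percentile (chr2:74749286-74749643), 3681 bp downstream of its nearest start in the noncoding transcript Haglr. In the library labelled -DOX the Hoxd3 peak was another one, 8573 bp away, with a -log10 q of 4.56 and the 19.6th percentile. Hoxd4, a further anterior gene, held the highest peak in the library labelled -DOX, with a -log10 q of 11.1 and the 63.0th percentile, and a peak of 9.86 and the 56.7th percentile in the library labelled +DOX, with summits 54 bp apart. The starts of Hoxd3 and Hoxd4 lie so close that this site cannot be given to either gene with confidence: its summit lies 202 bp from a start of Hoxd4 and 204 bp from one of Hoxd3. Hoxd8 had 2 peaks in each list, the stronger at 7.41 (+DOX) and 10.3 (-DOX), with summits 51 bp apart in its coding sequence. Hoxd12, a digit gene, had a peak only in the library labelled -DOX, at 8.15 and the 49.7th percentile, 1980 bp upstream of its start, and this was its sole peak in the 4 lists. Hoxd13 and Hoxd1 had one there too, at 5.60 and 5.94.

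In clusters a, b and c no peak assigned to a Hox gene passed a -log10 q of 7.61, the value of Hoxa5. Hoxa5, which acts in lung and in blood cell lineage choice, had that peak in the library labelled +DOX, 130 bp downstream of its start, and none in the library labelled -DOX. Hoxa7, a central gene, had 6.35 there, at a start of an alternative transcript. Hoxa4 had 6.83 (+DOX) and 4.41 (-DOX), at summits 137 and 47 bp upstream of the start and so outside the coding exon that held its H3K27me3 peak. Hoxa13 had 3.18 and 4.56, with summits 228 bp apart that did not overlap. In cluster b, Hoxb2 had 3.94 (+DOX) and Hoxb3 5.43 (-DOX), both genes of the hindbrain. Hoxc9, a posterior gene, had the single RUNX1 peak of cluster c, at 5.31 in the library labelled -DOX, within the long gene record of Hoxc5. Hoxb4 had a site 3467 bp upstream of its start in the library labelled +DOX and 3500 bp in the library labelled -DOX, with -log10 q of 3.47 and 4.56, and a further peak of 4.71 in its coding sequence labelled +DOX.

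The RUNX1 peaks of the 2 lists overlapped at 4 sites, at Hoxa4, Hoxb4, Hoxd4 and Hoxd8. That was 36.4% of the 11 peaks labelled +DOX (15.2 to 64.6) and 33.3% of the 12 labelled -DOX (13.8 to 60.9), where 66.8% and 80.0% of all peaks overlapped. Weak peaks overlapped less in general: up to the 50th percentile of -log10 q in each list the shares were 45.4% and 64.3%, and 9 of 11 and 10 of 12 Hox peaks stood there, of which 3 and 2 overlapped. With 1 library each, a difference between the RUNX1 lists at these genes was not tested.

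The sequence at the RUNX1 peaks is shown for the sites where strength or motif matters: the strongest peak of Hoxd3, Hoxd8 and Hoxd12, and the 2 sites with the full RUNX consensus. The windows are 200 bp around the summit in mm10, on the plus strand, with capitals for the RUNX core TGTGGT, read as ACCACA on the other strand, and for the ETS core GGAA, read as TTCC. They are chr2:74749303-74749502 (Hoxd3, labelled +DOX), chr2:74705676-74705875 (Hoxd8, labelled -DOX), chr2:74672933-74673132 (Hoxd12, labelled -DOX), chr11:96314700-96314899 (upstream of Hoxb4, labelled +DOX) and chr2:74740730-74740929 (Hoxd3 intron, labelled -DOX).
Hoxd3 strongest: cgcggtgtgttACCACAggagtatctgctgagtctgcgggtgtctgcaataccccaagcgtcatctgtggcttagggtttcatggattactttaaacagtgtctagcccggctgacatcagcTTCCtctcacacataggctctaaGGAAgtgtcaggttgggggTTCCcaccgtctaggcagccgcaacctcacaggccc
Hoxd8: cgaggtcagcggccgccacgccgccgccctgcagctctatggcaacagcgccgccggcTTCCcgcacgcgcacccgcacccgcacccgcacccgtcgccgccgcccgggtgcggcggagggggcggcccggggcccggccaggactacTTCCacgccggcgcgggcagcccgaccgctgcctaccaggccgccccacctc
Hoxd12: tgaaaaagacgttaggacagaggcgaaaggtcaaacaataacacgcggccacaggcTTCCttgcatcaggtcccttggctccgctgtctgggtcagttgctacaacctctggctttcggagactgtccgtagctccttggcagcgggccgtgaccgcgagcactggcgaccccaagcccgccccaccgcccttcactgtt
Hoxb4 upstream: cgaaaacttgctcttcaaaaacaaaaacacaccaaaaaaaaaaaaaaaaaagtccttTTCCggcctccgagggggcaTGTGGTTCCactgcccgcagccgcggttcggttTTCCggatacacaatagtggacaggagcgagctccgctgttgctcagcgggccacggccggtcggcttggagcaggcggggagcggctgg
Hoxd3 intron: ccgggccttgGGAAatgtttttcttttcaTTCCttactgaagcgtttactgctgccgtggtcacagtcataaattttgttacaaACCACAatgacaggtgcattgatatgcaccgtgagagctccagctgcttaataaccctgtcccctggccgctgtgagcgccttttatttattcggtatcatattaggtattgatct
In the site upstream of Hoxb4 the RUNX and ETS cores overlap, so that the capitals run together there.

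The RUNX consensus TGTGGTT, searched on both strands, was found in 1 of 11 Hox windows labelled +DOX, upstream of Hoxb4, or 9.09% (1.62 to 37.7), against 14.1% of all RUNX1 peaks of that list. In the library labelled -DOX it was found in 2 of 12, at the same site of Hoxb4 and in the Hoxd3 intron, or 16.7% (4.70 to 44.8), against 12.4%. The core TGTGGT or TGCGGT was found in 3 of 11 windows (27.3%, against 37.3% of all) and in 4 of 12 (33.3%, against 36.0%). The ETS core GGAA, short enough to occur in most windows, was found in 10 of 11 and 10 of 12, against 87.3% and 85.4%. The GATA consensus AGATAA was found in 0 of 11, which allows a share of up to 25.9%, and in 1 of 12, at Hoxd8, against 10.5% and 12.4%. With 11 and 12 windows, none of these shares can be told from that of all peaks. The Hoxb4 site is the weaker of the peaks at its gene by rank in the library labelled +DOX, yet it is present in both lists with summits 33 bp apart.

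The mark and RUNX1 met at 13 Hox genes, or 34.2% (21.2 to 50.1), against 10.5% of protein-coding genes, while 21, or 55.3% (39.7 to 69.9), had H3K27me3 without RUNX1, against 6.69%. Both shares carry the frequency of the mark itself. Among genes with the mark, RUNX1 was at 13 of 34 Hox genes, or 38.2% (23.9 to 55.0), and at 61.0% of protein-coding genes. The 13 were every Hox gene with a RUNX1 peak other than Hoxd12. At the level of peaks, 2 of 11 Hox peaks labelled +DOX overlapped an H3K27me3 peak titled untreated and 4 of 11 one titled DOX, or 18.2% (5.14 to 47.7) and 36.4% (15.2 to 64.6), where 5.94% and 6.20% of all peaks of that list did. For the library labelled -DOX it was 5 of 12 with each list, or 41.7% (19.3 to 68.0), against 6.50% and 6.90%. These peak shares also carry the higher frequency of the mark at Hox genes, and what that adds to them was not tested. In the other direction, 2 of the 45 Hox peaks titled untreated overlapped a RUNX1 peak labelled +DOX, or 4.44%. For -DOX it was 6, or 13.3%. Of the 46 titled DOX it was 4, or 8.7%, and 5, or 10.9%. Of all RUNX1 peaks, 1297 labelled +DOX and 1196 labelled -DOX overlapped the 6356 peaks titled untreated. For the 7233 titled DOX it was 1353 and 1269. The share of all H3K27me3 peaks that met RUNX1 is not given here. The closest pairs lay in Hoxd8, where a RUNX1 summit labelled -DOX was 2 bp from an H3K27me3 summit titled DOX. A summit labelled +DOX was 7 bp from another titled DOX, and the stronger one labelled +DOX was 14 bp from one titled untreated. At Hoxa13 the RUNX1 summit labelled -DOX was 124 and 221 bp from the H3K27me3 summits, and at Hoxd13 136 and 147 bp. The protocol given for the H3K27me3 libraries names a RUNX1 antibody, and no input library was analysed here. The part of either in these overlaps was not tested.

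The genes that work with the Hox proteins or control them were read in the same way. Of 9 TALE homeodomain cofactors, which bind DNA together with Hox proteins, 5 had an H3K27me3 peak in both lists and all 9 a RUNX1 peak in at least 1. Meis1, a partner of Hoxa9 in blood, had a -log10 q of 7.39 titled untreated and 3.44 titled DOX for the mark, and 36.8 (+DOX) and 15.3 (-DOX) for RUNX1. The others with the mark were Meis2, Pbx4, Pknox1 and Pknox2, and the peak at Pknox1 had a fold of 25.0 and 28.7, above any Hox peak. Pknox1 also stood at the 96.1st (+DOX) and 93.7th (-DOX) percentile for RUNX1, the antibody target that the H3K27me3 protocol names. Of the caudal genes, which switch on Hox genes in the early embryo, Cdx1 and Cdx2 had the mark in both lists, at 10.5 and 13.1 and at 5.87 and 7.93, and Cdx4 had no peak in any list. Evx1 and Evx2, homeobox genes that lie beside clusters a and d, both had the mark in both lists.

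Of 13 Polycomb genes, Bmi1, Cbx7, Cbx8 and Jarid2 had an H3K27me3 peak in both lists, and all 13 had a RUNX1 peak in at least 1 list and 11 in both. The peak at Jarid2, which helps to recruit Polycomb repressive complex 2, had a fold of 31.3 titled untreated and 31.2 titled DOX, and Jarid2 stood at the 98.0th (+DOX) and 97.6th (-DOX) percentile for RUNX1 as well. A further set of 5 genes, tied to keeping Hox genes active, is called trithorax-side here as a loose name, since not all belong to the trithorax group. Of these, Mllt3 alone had the mark, at 13.3 and 2.46, and all 5 had a RUNX1 peak in both lists. These lists were chosen with earlier results known, so the counts are descriptions. An H3K27me3 peak in both lists was found at 11.3% of protein-coding genes. In the RUNX1 library labelled +DOX a peak lay at 8 of 9 TALE genes, 13 of 13 Polycomb genes and 5 of 5 trithorax-side genes. Those counts stand beside 49.6% of protein-coding genes. In the library labelled -DOX they were 8, 11 and 5, beside 45.9%.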

How the data were processed

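ChIP-seq peak lists of 4 libraries were used, 1 per group. The authors aligned reads to mm10 and called narrow peaks per library with MACS2 (version 2.1.1 in the submitters' processing notes, which name Bowtie2 2.2.9; the paper's methods give another Bowtie2 version and a q-value limit of 0.05 for RUNX1, and do not describe H3K27me3). Per peak the deposited lists give a ratio (fold enrichment over local background), the -log10 of its p-value and q-value, a summit offset and a display score, which was not used. Tag counts and depth are unknown.

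Summits on assembled chromosomes were assigned to Hox genes (GENCODE vM21), with starts of all transcripts and a window of 5 kb. The background is the share of protein-coding genes with such a peak. Shares have Wilson intervals, for counting error only. Python 3.11.15, numpy 2.4.6, pandas 2.3.3 and scipy 1.17.1 were used, with the assignment tested on simulated data. Named in full were the gene of the strongest H3K27me3 peak of each cluster and list and every Hox gene with a RUNX1 peak; by name, genes with the mark in 1 list or none and cofactor or regulator genes with it. Other Hox genes, coordinates of lesser peaks, the RUNX core search, overlaps of weaker peaks, the share of RUNX1 among genes with the mark and the background of 5000 peaks were chosen after their values were seen. The members and lists were chosen with earlier results of these data known. Of 39 genes of the clusters, 1 is not reported here, nor are 1 regulator gene and 1 peak sequence. Alternatives changed the window, the q-value limit, the list length, the peak position, the starts and the assignment, and exchanged the RUNX1 libraries. Assignment to the nearest start of any protein-coding gene was added after seeing the data.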

Additional observations from a re-analysis of the deposited data

How the results depend on the processing

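Of 74 alternative values for the 8 counts of Hox genes, 60 stayed within 1.5 times the value reported and 14 did not. At a -log10 q of at least 5, H3K27me3 titled DOX fell to 15 genes, both H3K27me3 lists to 12, RUNX1 labelled -DOX to 7, and genes with both a mark and a RUNX1 peak to 8. With the 5000 strongest peaks of each list, all RUNX1 counts became 0 (labelled +DOX 0, labelled -DOX 0, only +DOX 0, only -DOX 0, with the mark 0). With 1 start per gene, genes only in the library labelled -DOX became 3. With every Hox gene whose window held the summit, genes only in the library labelled +DOX became 5 and genes with both the mark and RUNX1 became 20. With the RUNX1 libraries exchanged, the counts for +DOX and -DOX became 5 and 3. Over all alternatives the count titled untreated ran from 18 to 31 and that titled DOX from 15 to 34. The RUNX1 count labelled +DOX ran from 0 to 13 and that labelled -DOX from 0 to 15. The shorter lists hold fewer peaks by construction, and exchanging the RUNX1 libraries swaps the 2 counts by construction. The cause of the other changes was not tested. No paired analysis was possible because each group has 1 library, and for the same reason none could be left out. Depth is unknown, so a gene with no peak may lie under the calling limit.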

Other observations

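In the library labelled +DOX, the strongest RUNX1 peak inside a Hox cluster was outside the windows of the Hox genes, in the gap between Hoxb13 and Hoxb9 in cluster b. It lay there at chr11:96235080-96235387, with a fold of 8.52, a -log10 q of 20.4 and the 82.6th percentile, and a peak of the library labelled -DOX lay at chr11:96235099-96235293, with 5.54, 8.30 and the 50.4th percentile. Its summits lay 36230 and 36291 bp from the nearest start, that of Hoxb9. The 200 bp at the summit labelled +DOX (mm10, chr11:96235127-96235326, plus strand) are shown because they hold the RUNX core TGTGGT, read as ACCACA, and the ETS core GGAA, both in capitals. A long stretch of this window is repetitive, with ccacag many times over, and its share of soft-masked sequence is not given here.
HoxB gap: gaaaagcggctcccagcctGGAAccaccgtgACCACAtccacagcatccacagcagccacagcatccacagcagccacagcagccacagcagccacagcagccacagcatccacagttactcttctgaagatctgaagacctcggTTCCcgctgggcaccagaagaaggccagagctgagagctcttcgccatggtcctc
In the same gap the H3K27me3 list titled untreated had a peak in Gm53, 19839 bp from the nearest start of Hoxb9, with a -log10 q of 10.7 and a fold of 5.86, higher in both measures than its peaks at Hoxb9 itself, and the list titled DOX had one 9618 bp from Hoxb13 with a -log10 q of 2.71. Beside Hoxd13, in cluster d, weak peaks titled DOX and labelled +DOX lay 7237 and 6438 bp from its start, with -log10 q of 2.13 and 2.71.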
